A study of Mus musculus with 12 samples.

Results

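Of 22236 genes in the hippocampal expression table, 10 were followed here because their proteins recognise RNA or DNA, or act on double-stranded RNA inside the cell. They were found by symbol, all 10 were present, and all 10 passed the filter on low counts that left 15853 genes. They comprise the Z-nucleic acid sensor Zbp1, the cytosolic RNA helicases Ddx58 (RIG-I), Ifih1 (MDA5) and Dhx58 (LGP2), the endosomal Toll-like receptors Tlr3, Tlr7 and Tlr9, the DNA pathway adaptor Tmem173 (STING), the RNA-activated kinase Eif2ak2 (PKR) and the RNA editing enzyme Adar.

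The libraries were made from whole hippocampus of male mice aged 3 to 5 months, from the strains C57BL/6J (called B6) and DBA/2J (called D2). All mice received an adeno-associated virus of serotype 9 (AAV9) in the hippocampus on both sides at least 6 weeks before harvest. In the knockdown (KD) groups the virus encoded a short hairpin RNA against Hp1bp3, a chromatin protein related to linker histones, and in the control (Ctrl) groups a scrambled hairpin. Each of the 4 groups held 3 libraries, each titled as a separate mouse, and uninjected tissue was not analysed here, so virus, surgery and a hairpin were common to all 4 groups.

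A cell has several routes for noticing nucleic acid that is foreign or in the wrong place. RIG-I and MDA5 bind RNA in the cytosol and signal through Mavs, TLR3, TLR7 and TLR9 meet RNA or DNA in endosomes and signal through Ticam1 or Myd88, and cytosolic DNA is read by cGAS, which activates STING. All of these routes can induce interferon, and interferon in turn raises many of the sensors themselves. In brain, microglia carry much of this machinery, while astrocytes and neurons carry part of it.

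Library totals ran from 18.2 to 39.4 M expected counts. The target was checked first. Hp1bp3 stood at 308, 293 and 310 CPM (counts scaled to a common library size by trimmed mean of M-values, TMM) in B6 Ctrl and at 185, 182 and 259 in B6 KD, so the B6 groups did not overlap. It stood at 226, 215 and 234 CPM in D2 Ctrl and at 177, 163 and 229 in D2 KD, so the library labelled D2 KD 3 lay inside the range of its controls. The fitted log2 fold change was -0.54 in B6 (SE 0.15, adjusted p = 0.0760) and -0.25 in D2 (SE 0.15, adjusted p = 1) by edgeR's quasi-likelihood test, the test behind every adjusted p given here. Neuronal markers were abundant in all libraries, at 5872 to 8667 CPM summed over 7 genes, while 9 markers of choroid plexus epithelium ranged from 63.3 to 5226 CPM and split the libraries into 5 poor in that tissue and 7 rich in it.

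Sequence near the annotated start is shown for the 3 members in which the core of the interferon-stimulated response element was found. The core was taken as GAAANNGAAA in either orientation. Whether this motif has a part in the responses described below was not tested. RefSeq windows on GRCm38.p6, from 250 bases before to 50 bases after each start, were held for 6 of the 10 members, and for Zbp1, Dhx58, Tlr7 and Tmem173 none was held. The stretches below are from the minus strand of the C57BL/6J reference, 5′ to 3′, at chr4:40239804-40239833 for Ddx58, chr2:62646206-62646233 for Ifih1 and chr17:78882535-78882564 for Eif2ak2, with the motif in capitals.
Ddx58: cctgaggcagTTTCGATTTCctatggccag
Ifih1: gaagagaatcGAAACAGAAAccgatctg
Eif2ak2: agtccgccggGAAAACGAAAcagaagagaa
The motif began 3 bases into the transcript for Ddx58, 33 for Ifih1 and 19 for Eif2ak2, counting the annotated start as 1. It was absent from the windows of Tlr3, Tlr9 and Adar. Of all 32851 windows in the table, 3.44% held it. A second interferon-related motif, the gamma-activated site TTCNNNGAA, was in the window of Eif2ak2 and in 1 of 3 windows of Adar, against 8.3% of all windows.

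In B6 mice, Hp1bp3 KD was accompanied by higher RNA of most sensors. Of the 10 members, 7 rose at an adjusted p under 0.05 and none fell, against 1.76% of all genes tested that rose and 0.877% that fell. The median log2 fold change of the 10 members was 2.05, against 0.00 over all genes tested. In 9 of 10 members every KD library exceeded every Ctrl library, which held for 13.9% of all genes. The exception was Adar, whose 3 KD libraries all lay below the Ctrl libraries, as did those of 14% of all genes.

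Zbp1 encodes a protein that binds left-handed Z-form RNA and DNA and can start necroptosis and apoptosis through Ripk3. It lies at chr2:173206612-173218923 on GRCm38. In B6 Ctrl it was scarce, at 0.593, 0.382 and 0.347 CPM, which were 22, 10 and 12 expected counts. In B6 KD it reached 12.3, 24.1 and 4.69 CPM, or 432, 550 and 186 counts. Even the lowest KD library was therefore far above the highest Ctrl library, while the KD libraries differed among themselves more than the Ctrl libraries did. The fitted difference was 4.92 on the log2 scale (SE 0.99, 95% interval 2.74 to 7.11, adjusted p = 0.0389), a 30.4-fold rise and the largest of the 10 members.

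The RIG-I-like helicases rose together and by similar amounts. Ddx58, at chr4:40203773-40239828, senses short RNA with a free 5′ triphosphate and stood at 7.63, 10.8 and 8.24 CPM in B6 Ctrl and at 63.5, 85.6 and 29.7 in B6 KD. Ifih1, at chr2:62595798-62646255, senses long double-stranded RNA and went from 4.93, 7.91 and 5.38 CPM to 45.3, 53.9 and 16.3. Dhx58, at chr11:100694884-100704271, lacks the signalling domains of the other two and tunes them, and went from 1.73, 2.10 and 1.65 CPM to 13.8, 16.9 and 5.92. For each helicase the third KD library was the lowest and still exceeded every control. The log2 fold changes were 2.75 for Ddx58 (SE 0.44, adjusted p = 0.0326), 2.67 for Ifih1 (SE 0.47, adjusted p = 0.0344) and 2.74 for Dhx58 (SE 0.54, adjusted p = 0.0379).

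Among the endosomal receptors, Tlr7 and Tlr3 rose and Tlr9 did not pass the test. Tlr7, a receptor for single-stranded RNA at chrX:167304929-167330558, stood at 3.59, 3.82 and 3.93 CPM in B6 Ctrl and at 15.1, 14.7 and 6.85 in B6 KD, a log2 fold change of 1.69 (SE 0.37, adjusted p = 0.0448). Tlr3, the receptor for double-stranded RNA at chr8:45395665-45411080, rose less, from 18.2, 20.0 and 18.6 CPM to 33.6, 45.03 and 26.6 (log2 fold change 0.89, SE 0.20, adjusted p = 0.0449). Tlr9, the receptor for unmethylated CpG DNA at chr9:106222598-106226883, stood at 2.62, 3.10 and 2.34 CPM in Ctrl and 6.53, 7.89 and 3.33 in KD. The lowest Tlr9 KD library was only just above the highest control, and the difference of 1.14 (95% interval 0.25 to 2.02) did not pass the test (adjusted p = 0.140).

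Tmem173, the adaptor that turns the cGAS signal into interferon induction, stood at 4.26, 5.24 and 3.73 CPM in B6 Ctrl and at 8.26, 10.5 and 7.84 in B6 KD. The groups were separate and the KD libraries were close to one another, but the difference of 1.01 (SE 0.26) did not pass the test either (adjusted p = 0.0630).

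The 2 members that act on double-stranded RNA rather than signalling to interferon differed from each other. Eif2ak2, at chr17:78852564-78882573, halts translation by phosphorylating eIF2 alpha once RNA has activated it. It went from 8.20, 11.1 and 10.4 CPM in B6 Ctrl to 61.7, 67.8 and 27.7 in B6 KD, a log2 fold change of 2.40 (SE 0.32, adjusted p = 0.0326) with the smallest unadjusted p of the 10. Adar, at chr3:89715022-89753446, edits adenosine to inosine in double-stranded RNA and is known for keeping the cell's own RNA from being sensed. It stood at 260, 249 and 266 CPM in Ctrl and 241, 237 and 218 in KD, a difference of -0.15 (95% interval -0.31 to 0.01, adjusted p = 0.260). The gene total joins the constitutive form of Adar with the form that interferon induces, and the 2 were not separated here.

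**Figure D1:**
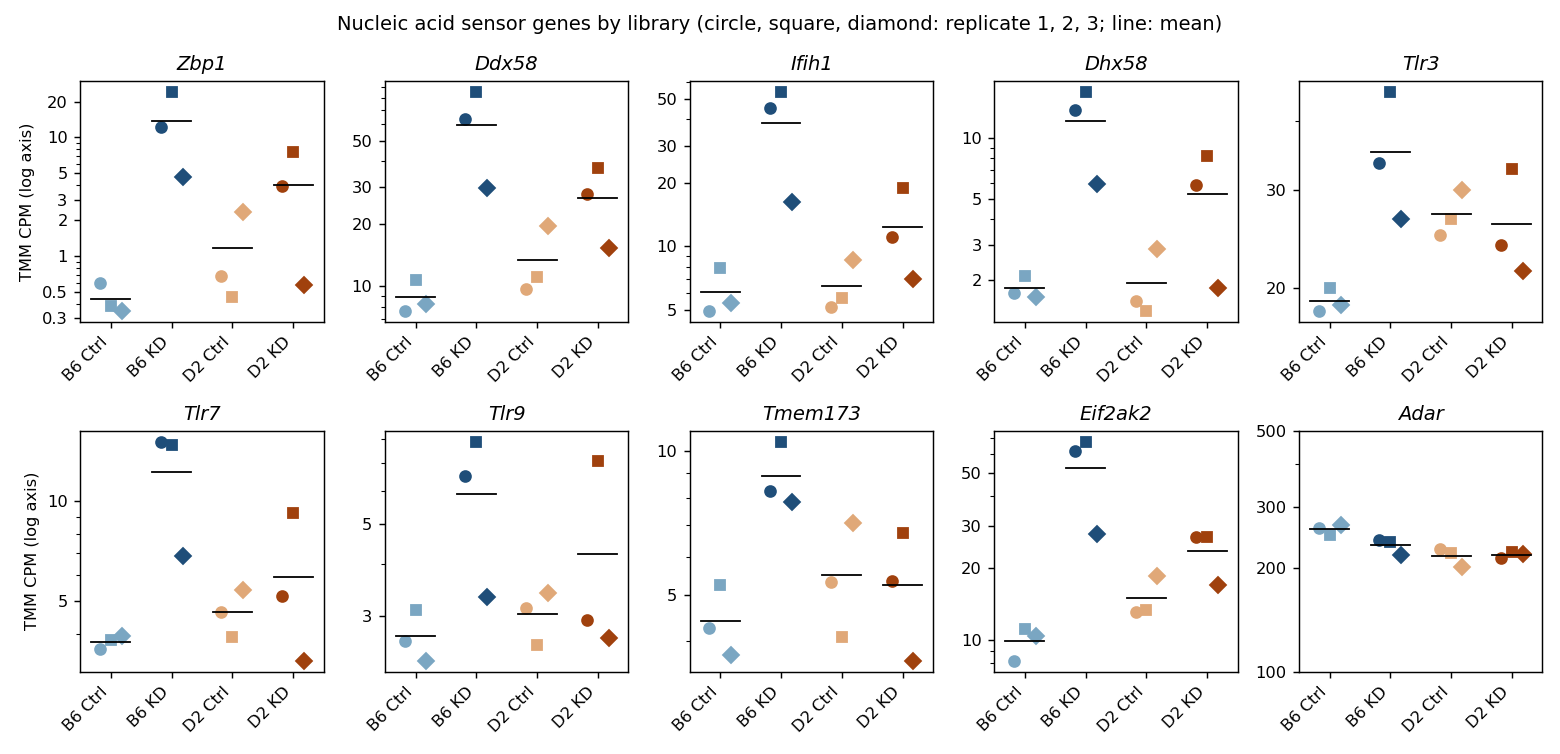
TMM-scaled CPM of the 10 sensor genes in each of 12 libraries, on a log axis whose range differs between panels, with marker shape for the replicate number and a line at the mean of each group. In B6 all KD libraries lie above all Ctrl libraries except for Adar, and in D2 every panel overlaps.

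Calls in B6 were close to the threshold and rested on several libraries. Leaving out B6 Ctrl 1, B6 Ctrl 3, B6 KD 1, B6 KD 2 or D2 Ctrl 1 left 0 members called, with lowest adjusted p of 0.178, 0.125, 0.0690, 0.0985 and 0.0517, and in each of these fits 0 genes of the whole table were called. Without B6 Ctrl 2 or D2 KD 1 the count was 3, and without D2 Ctrl 2 it was 2. With all libraries, DESeq2 called 8 members, limma-voom 3, and a fit with the library total as covariate 0. The direction of all 10 members held in all 12 fits without a library: Zbp1 ranged from 4.22 to 5.30 and Eif2ak2 from 2.16 to 2.68 on the log2 scale.

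Levels per length put Adar far above the other sensors in every group. In B6 Ctrl, Adar stood at 31.8 ± 1.11 CPM per kilobase of exon (SD, n = 3) and Tlr3 came next at 3.63 ± 0.186. Eif2ak2 at 1.94 ± 0.299, Tmem173 at 1.61 ± 0.279 and Ddx58 at 1.26 ± 0.237 followed, and the ranges of mean ± 1 SD overlapped between neighbours in this order. Tlr7 stood at 0.926 ± 0.0434. Tlr9 at 0.772 ± 0.110, Ifih1 at 0.744 ± 0.197 and Dhx58 at 0.558 ± 0.0743 again overlapped with their neighbours among these, and Zbp1 was lowest at 0.125 ± 0.0377, apart from Dhx58. In B6 KD the order differed: Adar at 28.6 ± 1.49, Eif2ak2 at 10.3 ± 4.23 and Ddx58 at 8.45 ± 3.99 led, and Zbp1 at 3.88 ± 2.78 had moved above Dhx58, Tmem173, Tlr7 and Tlr9 in mean, with spreads that overlapped theirs.

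In D2 mice the same comparison gave smaller differences. None of the 10 members was called by edgeR, at an adjusted p of 1 for each, and 0% of all genes were called in either direction. DESeq2 and limma-voom also called 0 members. Without adjustment 2 members, Dhx58 and Ddx58, had a p under 0.05, as did 452 genes of the table (2.85%). No member had all KD libraries above all Ctrl libraries, against 2.93% of all genes. The median log2 fold change of the members was 0.57, against 0.00 over all genes.

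Zbp1 in D2 stood at 0.681, 0.453 and 2.37 CPM in Ctrl and at 3.88, 7.57 and 0.569 in KD. The third control was the highest of its group and the library labelled KD 3 sat at control level, so the groups overlapped through those libraries. The difference was 1.75 (95% interval -0.18 to 3.68). Ddx58 showed the same arrangement, with 9.69, 11.1 and 19.5 CPM in Ctrl and 27.7, 36.8 and 15.2 in KD (difference 0.99, 95% interval 0.07 to 1.90). Dhx58 stood at 1.58, 1.42 and 2.85 CPM in Ctrl and 5.91, 8.18 and 1.83 in KD (difference 1.44, 95% interval 0.27 to 2.60).

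The remaining differences in D2 were 0.93 for Ifih1, 0.66 for Eif2ak2, 0.48 for Tlr9, 0.34 for Tlr7, 0.01 for Adar, -0.06 for Tlr3 and -0.07 for Tmem173. The D2 interval lay below the B6 estimate for 8 of 10 members, the exceptions being Tlr9 and Adar, which leaves the error of the B6 estimates out of account. Without the library labelled D2 KD 3, whose target RNA was not reduced, the differences were 2.27 for Zbp1, 1.26 for Ddx58 and 0.85 for Eif2ak2, and 0 members were called (lowest adjusted p = 0.379). Without D2 Ctrl 3, the Zbp1 difference was 2.78 and again 0 members were called. Leaving out D2 KD 2 instead made the differences smaller, at 0.89 for Zbp1, 0.68 for Ddx58, 0.97 for Dhx58 and 0.47 for Ifih1, with 0 members called.

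**Figure D2:**
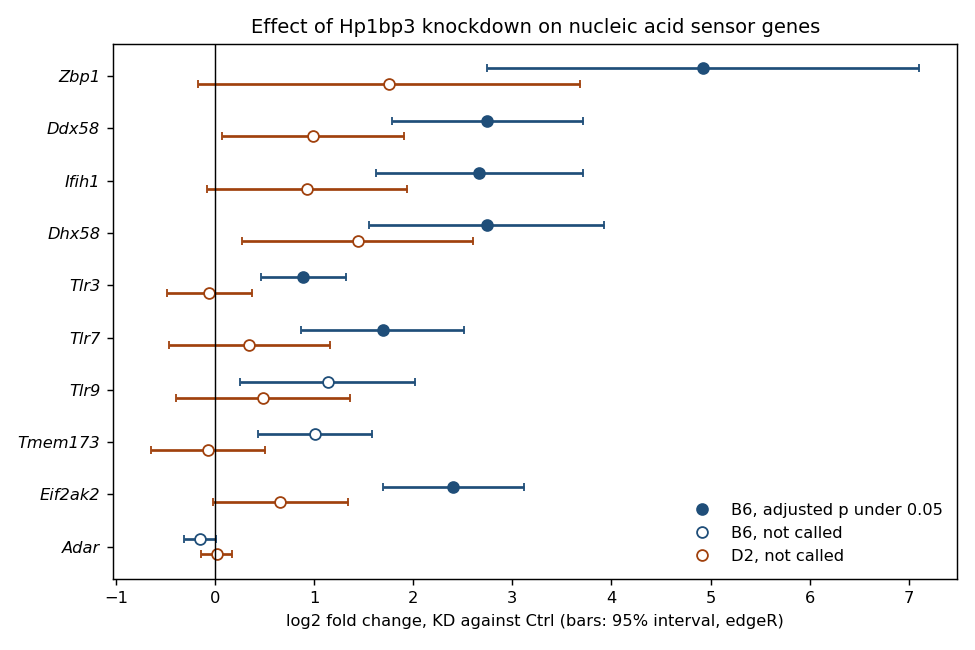
Log2 fold change of KD against Ctrl for each sensor gene in B6 and D2, with 95% intervals from the edgeR fit; filled points passed an adjusted p of 0.05. The 7 filled points are all in B6, and 9 of 10 estimates in B6 lie to the right of those in D2.

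The strains were then compared directly. For 9 of 10 members the KD effect was smaller in D2 than in B6, by 0.65 to 3.17 on the log2 scale, and for Adar it was larger by 0.17. The unadjusted p was under 0.05 for 7 members, against 5.91% of all genes, with the smallest for Eif2ak2 (difference -1.74, 95% interval -2.71 to -0.78). After adjustment none was called, with adjusted p from 0.822 to 0.957, and 0% of all genes were called, so a difference between strains was not shown. DESeq2 and limma-voom called 0 members as well. Averaged over the strains, edgeR called none of the members and 0% of genes, while 9 members had an unadjusted p under 0.05, as did 19.2% of genes, with the lowest adjusted p at 0.0540 for Ddx58, Ifih1, Dhx58 and Eif2ak2. DESeq2 called 6 members in that average.

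Between the control groups, 1 member differed. Adar was lower in D2 Ctrl, at 227, 220 and 201 CPM, than in B6 Ctrl, a log2 difference of -0.26 (SE 0.07, adjusted p = 0.0358), and 8.75% of all genes were called lower in D2. Its D2 Ctrl libraries all lay below its B6 Ctrl libraries, as for 17.9% of all genes. The call was lost in 9 of the 12 fits that left out a library (highest adjusted p = 0.165). Tlr3 and Eif2ak2 were higher in all D2 Ctrl than in all B6 Ctrl libraries, as were 13.9% of genes, at 24.9, 26.5 and 30 CPM for Tlr3 (difference 0.52, adjusted p = 0.121) and 13.1, 13.4 and 18.5 CPM for Eif2ak2 (difference 0.60, adjusted p = 0.298). The B6 and D2 reads went to different genomes, each to its own, so strain and alignment cannot be told apart here.

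Within both KD groups most sensors were lowest in the library with the most Hp1bp3. In B6 KD the order of Hp1bp3 was 182, 185 and 259 CPM for KD 2, KD 1 and KD 3, with KD 1 and KD 2 close together. There 8 of 10 members were highest in KD 2, as were 27.4% of all genes, and all 10 were lowest in KD 3, as were 42.6%. In D2 KD the order was 163, 177 and 229 CPM for KD 2, KD 1 and the library labelled KD 3, with 9 of 10 members highest in KD 2 (36% of all genes) and 9 lowest in KD 3 (35.7%). In each strain 8 members followed exactly the reverse order of the target, as did 18.4% of all genes in B6 and 20.8% in D2. These are 3 libraries per group, and the members share their libraries, so this is a description without a test.

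**Figure D3:**
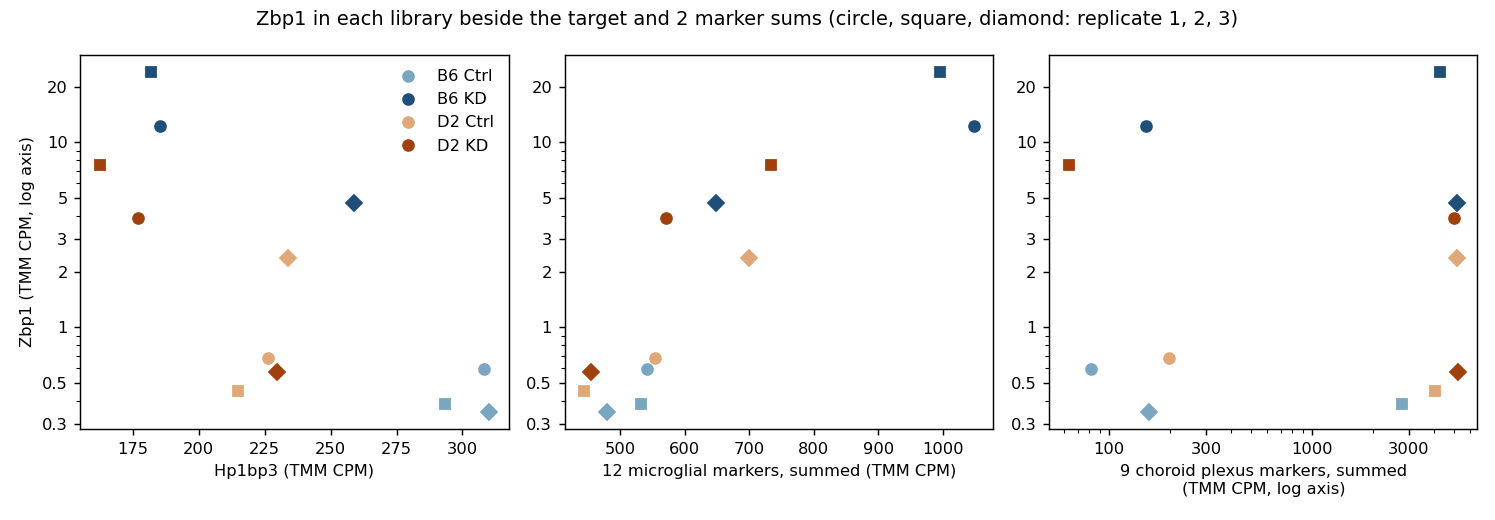
Zbp1 (TMM-scaled CPM, log axis) in each library against Hp1bp3, the summed microglial markers and the summed choroid plexus markers of the same library, with colour for the group. Libraries with Zbp1 above 3 CPM are all KD, and choroid plexus markers are both low and high among them.

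Microglial RNA moved with the sensors in B6. The sum over 12 microglial markers was 480 to 541 CPM in B6 Ctrl and 648 to 1048 CPM in B6 KD, with all 12 estimates above 0, 1 called (Itgam, 1.09, adjusted p = 0.0421) and a median log2 fold change of 0.72. In D2 it was 444 to 699 CPM in Ctrl and 454 to 733 in KD, with a median of -0.02. Over all genes tested the median was 0.00 in both strains, and 1.76% were called higher in B6. In bulk tissue more cells of a type and more RNA per cell cannot be told apart. When each member was divided by this sum, all KD libraries still exceeded all Ctrl libraries in B6 for 6 of 10 members (Zbp1, Ddx58, Ifih1, Dhx58, Tlr7 and Eif2ak2), against 2.35% of all genes on the same scale. Tlr3, Tlr9 and Tmem173 then overlapped, and the part of microglia in their levels was not tested. Adar was lower in all B6 KD libraries on this scale, at 230, 238 and 337 against 481, 467 and 555 in B6 Ctrl. The sum itself was higher in B6 KD, so a gene that does not follow it falls when divided by it. Zbp1 stood at 1.10, 0.718 and 0.723 CPM per 1000 CPM of microglial markers in B6 Ctrl and at 11.7, 24.2 and 7.23 in B6 KD. In D2, 3 members (Ddx58, Ifih1 and Eif2ak2) separated on this scale, against 1.8% of all genes. For Eif2ak2 the divided D2 values were 23.7, 30.1 and 26.5 in Ctrl and 47.4, 36.8 and 37.6 in KD. Before division these 3 members overlapped, with the library labelled D2 KD 3 below D2 Ctrl 3 (Ddx58 15.2 and 19.5 CPM, Ifih1 7.02 and 8.63, Eif2ak2 17.1 and 18.5). The microglial sum was 454 CPM in D2 KD 3 and 699 in D2 Ctrl 3, so division raised the first relative to the second.

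Markers of monocytes, macrophages and lymphocytes were low beside those of microglia. Whether the cells carrying them came from blood was not tested. The sum over 8 markers of monocytes and macrophages was 18.4 to 66.1 CPM in B6 Ctrl and 58.7 to 115 CPM in B6 KD, with Plac8 called (4.30, adjusted p = 0.0449). It was 20.0 to 41.5 CPM in D2 Ctrl and 26.4 to 47.1 CPM in D2 KD. Markers of T and NK cells, 9 in all, summed to 0.723 to 1.73 CPM in B6 Ctrl, 1.94 to 9.25 CPM in B6 KD and at most 1.63 CPM in D2, and only Cd4 and Cd8a of these had enough counts to test. Among the rest, 3 are named here after their values were seen. Summed over 3 libraries each, Cd3e had 2 expected counts in B6 Ctrl and 67 in B6 KD, Gzmb had 1 and 43, and Klrb1c had 3 and 25. In D2 Ctrl and D2 KD the sums were 3 and 5 for Cd3e, 3 and 10 for Gzmb and 0 and 2 for Klrb1c. The other untested markers rose by a smaller ratio in B6. Cd3g went from 9 counts in B6 Ctrl to 41 in B6 KD, Nkg7 from 12 to 47, Cd3d from 9 to 37 and Cd8b1 from 6.13 to 19.1. Their sums in D2 Ctrl and D2 KD were at most 10.8. The 4 B cell markers, of which 2 were tested, summed to 0.458 to 1.03 CPM in B6 Ctrl and 1.34 to 2.33 CPM in B6 KD. In D2 they summed to 0.453 to 0.593 CPM in Ctrl and 0.489 to 0.605 CPM in KD. Astrocyte markers, 6 in all, summed to 1775 to 1862 CPM in B6 Ctrl and 2708 to 3921 CPM in B6 KD, with Aqp4 called (2.3-fold higher, adjusted p = 0.0326), and to 1877 to 4100 CPM in D2 Ctrl and 1965 to 3077 CPM in D2 KD. None of the neuronal, oligodendrocyte, endothelial or choroid plexus markers was called in B6, nor were the 2 tested T and NK cell markers or the 2 tested B cell markers. The part of these cells in the sensor values was not tested.

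Choroid plexus markers were at their lowest in some KD libraries with high Zbp1 and near their highest in others. Among libraries poor in its markers, Zbp1 stood at 0.593 and 0.347 CPM in B6 Ctrl 1 and 3 against 12.3 in B6 KD 1, and at 0.681 in D2 Ctrl 1 against 7.57 in D2 KD 2. In both strains 9 of 10 members were higher in KD among these libraries, as were 37.6% of all genes in B6 and 52.2% in D2. Among libraries rich in it, 9 members were higher in B6 KD 2 and 3 than in B6 Ctrl 2 (31.2% of all genes), and none in D2 KD 1 and the library labelled KD 3 against D2 Ctrl 2 and 3 (10.3%). With the choroid plexus score as a covariate the B6 differences were 5.20 for Zbp1 and 2.77 for Ddx58, while 0 members were called (lowest adjusted p = 0.0589).

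The genes around the sensors moved unevenly in B6. Over all genes tested there, 1.76% were called higher and 0.877% lower, and the median log2 fold change was 0.00. Every call described below was lost in several of the 12 fits without a library. Irf7 was called in 7 of these fits, Ifi204 in 4, and Myd88 and Mlkl in 3. Over the 8 settings with all libraries, Ifi204 and Mlkl were called in 4, and Irf7 and Myd88 in 6. Of 12 genes that relay or restrain RIG-I-like signalling, 2 rose: Irf7, the interferon-inducible transcription factor that amplifies interferon production (4.69, adjusted p = 0.0326), and Trim25, a ubiquitin ligase that activates RIG-I (1.80, adjusted p = 0.0332). None fell, and the list median was 0.11. Irf7 ran from 1.91 to 3.33 CPM in B6 Ctrl and from 29.96 to 112 in B6 KD. Of 9 genes serving the endosomal receptors, 1 rose, the adaptor Myd88 (0.96, adjusted p = 0.0410), with a list median of 0.42.

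Toll-like receptors that are not members were tested for 7 of 9 listed, and Tlr8 and Tlr11 had too few counts. Of these, 2 rose in B6, Tlr2, a receptor for bacterial lipopeptides (2.35, adjusted p = 0.0434), and Tlr13, a mouse receptor for bacterial ribosomal RNA (1.56, adjusted p = 0.0452). The estimates of Tlr1 (1.60), Tlr6 (1.45), Tlr4 (1.13), Tlr12 (1.12) and Tlr5 (0.15) did not pass the test. The list median was 1.45, beside log2 fold changes of 1.69 for Tlr7, 1.14 for Tlr9 and 0.89 for Tlr3.

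Among 8 genes of cytosolic DNA sensing 3 rose, all from the Ifi200 family: Mnda (4.16, adjusted p = 0.0415), Ifi204 (4.06, adjusted p = 0.0443) and Ifi203 (1.37, adjusted p = 0.0448). Genes of this family are near copies of one another and the division of reads among them is uncertain. The list median was 0.32. Of 6 partners of Zbp1 in cell death, 3 rose: Mlkl, the executioner of necroptosis (2.46, adjusted p = 0.0467), the protease Casp8 (1.18, adjusted p = 0.0415) and the kinase Ripk1 (0.64, adjusted p = 0.0415). Mlkl remained scarce, at 0.231 to 0.306 CPM in B6 Ctrl and 0.655 to 2.59 CPM in B6 KD. The list median was 0.96, against 0.00 over all genes tested, of which 1.76% were called higher in B6.

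No relative of Eif2ak2 or Adar passed the test. Of 10 genes of eIF2 alpha phosphorylation and its stress response none was called, with a median of 0.07. The sister kinases had estimates of -0.21 for Eif2ak1 (adjusted p = 0.134), 0.00 for Eif2ak3 and -0.04 for Eif2ak4, against 2.40 for Eif2ak2. Of 10 genes that remove or edit nucleic acids none was called either, with a median of -0.03. The other adenosine deaminases had estimates of -0.20 for Adarb1 and -0.51 for Adarb2 (adjusted p = 0.178), and the DNA exonuclease Trex1 had 0.75 (adjusted p = 0.0670).

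Interferon transcripts themselves were barely detected. Of 13 interferon and receptor genes, 8 interferon genes had too few counts to test, and Ifnb1 had 0 counts summed over B6 Ctrl, 0 over B6 KD, 1 over D2 Ctrl and 2 over D2 KD. A sum of 0 over the 3 libraries of B6 KD allows up to 0.0313 CPM, counting error only. Ifng had 0, 3, 0 and 1 counts. Whether interferon RNA differed was thus not detectable at this depth. None of the 5 receptor genes was called, with the smallest p for Ifnar2 (0.52, adjusted p = 0.0864). By contrast, all 6 interferon-stimulated reference genes rose in B6, against 1.76% of all genes tested, with a list median of 4.12. They were led by Isg15 (4.37, adjusted p = 0.0326), Ifit1 (4.34, adjusted p = 0.0326) and Usp18 (4.32, adjusted p = 0.0361). In D2 none of the genes of these 9 lists was called, and 0% of all genes were. The medians there were 1.47 for the reference genes, 0.41 for cytosolic DNA sensing and 0.25 for the partners of Zbp1. They were at most 0.20 for the other lists, against 0.00 over all genes tested.

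**Figure D4:**
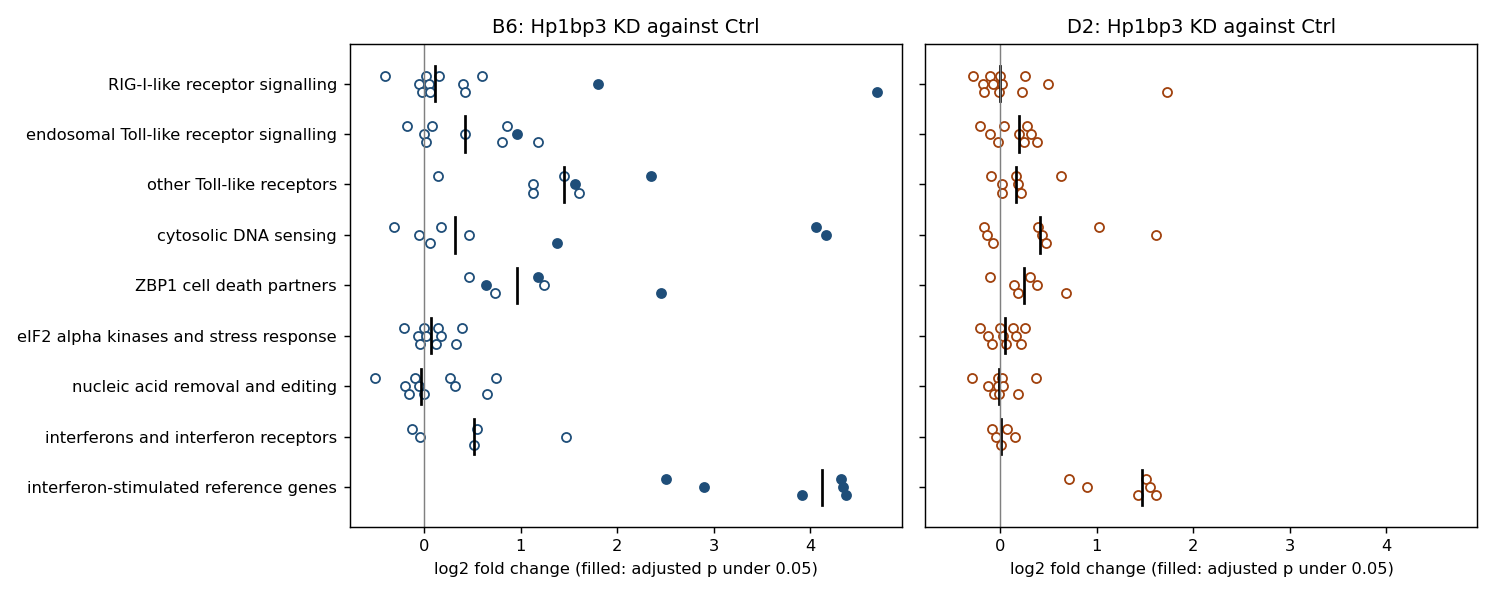
Log2 fold change of KD against Ctrl for each tested gene of 9 pathway lists in B6 (left) and D2 (right); filled points passed an adjusted p of 0.05 and the black bar marks the list median. All filled points are in B6 and to the right of 0, and the median of the 6 reference genes lies furthest right in both panels.

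Across the 12 libraries, and among genes with a mean of at least 1 CPM, the 5 non-member genes whose pattern was most like that of Zbp1 were Trim30a (Pearson r = 0.993), Phf11d (0.992), Gm4951 (0.990), Ifi204 (0.990) and Oas1a (0.988), on log2(CPM + 1). Trim30a, for instance, ran from 4.40 to 4.51 CPM in B6 Ctrl and from 20.4 to 65.2 in B6 KD. Among the members the order of likeness to Zbp1 was Dhx58 (0.986), Ddx58 (0.977), Ifih1 (0.963), Tlr7 (0.959), Eif2ak2 (0.953), Tlr9 (0.903), Tmem173 (0.901), Tlr3 (0.880) and Adar (-0.19). The points of these correlations share their library and the grouping by treatment, and no p is attached to them.

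Counting could blur some members. Genes on the opposite strand overlap Dhx58 (Dhx58os), Tlr3 (Gm45542), Eif2ak2 (Gm26637 and a ribosomal RNA gene) and Adar (Chrnb2), and whether the counting used strand is not given in the sources used here. Zbp1, Ddx58, Ifih1, Tlr7, Tlr9 and Tmem173 overlap no annotated gene.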

How the data were processed

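RNA libraries were made from whole-hippocampus total RNA with an mRNA kit and sequenced as paired reads. Per the labels and the study's methods, the authors trimmed reads, aligned them to the genome of each mouse's own strain and estimated expected counts per gene with RSEM 1.2.12 and Bowtie2 2.2.0 (GRCm38). Reads of 2 runs were joined where available. The authors also deposited normalized counts, a signal made by dividing by 1 DESeq2 size factor per library, in which 100% of 266808 values were whole reads within 0.01. They served as an alternative.

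Expected counts were rounded and fitted with edgeR 4.0.16 (R 4.3.3; filterByExpr, TMM, robust quasi-likelihood, older method) as 4 group means of 3 libraries, with Benjamini-Hochberg adjustment over 15853 genes. The script was tested on simulated data. Alternatives were DESeq2 1.42.0, limma 3.58.1 voom, the newer quasi-likelihood method, RLE scaling, no filter, a choroid plexus score or library total as covariate, and leaving out each library. Intervals at 95% came from the fit. Library totals, 18.2 to 39.4 M expected counts, leave counting error small except for Zbp1 and other genes under 1 CPM.

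The members and lists were chosen with earlier results of these data known. From each list up to 3 called genes with the largest change were named, or else the one with the smallest p, and all listed relatives where relatives were compared. The marker-based scales and the recovered reads were added after seeing the data. Gene positions and exon lengths are from GENCODE M21. In the expected counts, 27 symbols turned into dates were replaced through their Ensembl identifiers where a symbol was found. The study's small RNA libraries were not used.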

Additional observations from a re-analysis of the deposited data

How the results depend on the processing

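Recovered reads, RLE scaling, the newer quasi-likelihood method and no filter left 7 members called in B6, DESeq2 called 8, limma-voom 3, and either covariate 0. Leaving out 1 library gave 0 to 8, and 3 without B6 Ctrl 2 or D2 KD 1 and 2 without D2 Ctrl 2. For KD averaged over strains DESeq2 called 6 members, the newer method 1, and fits without 1 library 0 to 6 (6 without B6 KD 3 or D2 KD 3, 5 without D2 Ctrl 3). D2 and the interaction stayed at 0 in every fit. The Adar call between controls was lost (0 called) without the filter and with either covariate, and fits without 1 library gave 0 to 1. Hp1bp3 passed the threshold with DESeq2 in B6 (-0.57) and averaged (-0.41), and with edgeR in B6 and averaged without B6 KD 3 (adjusted p = 0.0226 and 0.0310) or without D2 KD 3 (0.0469 and 0.0283), and its value without 1 library ran from -0.76 to -0.47 in B6, from -0.41 to -0.15 in D2 and from -0.51 to -0.35 averaged. The cause of these changes was not tested.

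Signs turned for small estimates. With the library total as covariate, Tlr3 in D2 was 0.0477, and Ifih1 and Dhx58 between controls were -0.0883 and -0.0218. Tlr5 in B6 was -0.00114 with limma-voom and Eif2ak3 was 0.0331 with the choroid plexus score. Without 1 library, the D2 estimates ran from -0.0353 to 0.0414 for Adar, -0.262 to 0.0630 for Tlr3, -0.132 to 0.630 for Tlr7, -0.120 to 0.728 for Tlr9 and -0.297 to 0.151 for Tmem173. Those between controls ran from -0.167 to 0.322 for Ifih1 and -0.274 to 0.278 for Dhx58, and those in B6 from -0.292 to 0.473 for Tlr5, -0.113 to 0.0764 for Eif2ak3 and -0.174 to 0.0573 for Eif2ak4.

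No paired analysis was possible because the labels give no replicate numbers that link libraries across groups.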
